A study of Mus musculus with 6 samples.

Results

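Malat1 and Neat1 are neighbouring genes of mouse chromosome 19 that give rise to long noncoding RNAs of the nucleus. They were chosen by name, and they are 2 of the 38483 genes for which a read count was deposited. Counts came from mouse embryonic fibroblasts (MEFs), cells grown out of the minced bodies of embryos without their limbs, brains and internal organs. Ribo-depleted RNA was sequenced from 3 cultures labelled WT and 3 labelled Nipbl-haploinsufficient, called Nipbl+/- here, all of CD1 strain and all at the third passage. Nipbl encodes the cohesin loader, and Nipbl+/- mice, heterozygous for a knockout of the gene, are a model of Cornelia de Lange syndrome. The comparison asked whether these RNAs differ in level between MEFs of Nipbl+/- mice and MEFs of WT littermates.

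Neither RNA encodes a protein. Malat1 RNA gathers in nuclear speckles, bodies rich in splicing factors, whereas Neat1 RNA is the scaffold on which paraspeckles are built. Neat1 is made in a short and a long form from a shared start, and the long form is the one that paraspeckles need. The 3′ end of Malat1 and of long Neat1 is not a poly(A) tail made in the usual way. RNase P, the enzyme that trims the 5′ ends of tRNAs, cuts behind an encoded A-rich tract, and that tract folds back on U-rich stretches into a triple helix that shields the RNA from decay.

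The files place Malat1 (ENSMUSG00000092341) at chr19:5795690-5802672 of mm10 on the minus strand, a span of 6983 bases. Neat1 (ENSMUSG00000092274) lies upstream at chr19:5824708-5845478 on the same strand, a span of 20771 bases, and 22035 bases separate the genes. In the GENCODE M21 annotation each span is filled by an unspliced transcript, Malat1-201 and Neat1-201, so the intervals shown here are exonic and noncoding. The 3′ ends are shown because they are the feature that both RNAs share and that most RNAs lack. Capitals mark the U-rich stretches and, at the right end, the A-rich tract. The sequences are those of the GENCODE M21 transcripts, in DNA letters and in the sense of the RNA. The Malat1 stretch is chr19:5795982-5796071 and the Neat1 stretch is chr19:5824708-5824797, both on the minus strand.
Malat1: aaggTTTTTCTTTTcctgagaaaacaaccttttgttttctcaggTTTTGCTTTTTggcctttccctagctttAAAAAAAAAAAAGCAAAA
Neat1: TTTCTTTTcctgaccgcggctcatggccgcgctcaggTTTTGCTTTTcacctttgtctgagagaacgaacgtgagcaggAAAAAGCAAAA
These stretches of 90 bases share 3 runs of 8 or more bases in the same order, of 13, 16 and 11 bases. The first covers a U-rich stretch in full in Neat1 and in part in Malat1, the next does so for the other stretch, and the last is the whole A-rich tract of Neat1 and the 3′ part of that of Malat1, which is 18 bases long. A tract of this form, 5 or more A followed by GCAAAA, occurred once in each transcript. Neat1-201 is annotated to end at its tract, whereas Malat1-201 runs on for 292 bases. The bases that follow the tract in Malat1 (chr19:5795922-5795981, minus strand) hold the tRNA-like RNA that RNase P and RNase Z release.
Malat1 after the tract: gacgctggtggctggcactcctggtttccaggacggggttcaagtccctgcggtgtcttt

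Some facts of the libraries bear on both genes. Total counts were between 20307454 and 25990783 per culture, and replicates of a genotype differed by more than sampling noise. No reads were counted on any of the 19214 plus-strand genes, so the values cover the minus strand, on which both genes lie. The gene Gm20417 lies within the Malat1 span on the plus strand and was listed at 0. Nipbl was lower in Nipbl+/- cultures by 0.43 on the log2 scale (SE 0.06, adjusted p = 0.0213, quasi-likelihood test of edgeR), with the 3 Nipbl+/- cultures below the 3 WT cultures. Its adjusted p rose to between 0.0755 and 0.0864 when WT replicate 1, Nipbl+/- replicate 1 or Nipbl+/- replicate 2 was left out. The fibroblast markers on the measured strand, Fn1, Fbn1, Col6a1 and Prrx1, were detected in all cultures, while 14 of the 18 fibroblast markers are plus-strand genes. Nothing in the labels says that the cultures came from separate embryos, so p-values measure the spread between these cultures.

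Malat1 RNA was lower in Nipbl+/- MEFs. In the WT cultures, in the order of their replicate numbers, it made up 1.496%, 1.33% and 1.43% of all counts, from 339871, 304087 and 304894 reads. In the Nipbl+/- cultures, in the same order, it made up 1.09%, 0.857% and 0.963%, from 240565, 222602 and 195639 reads. Every Nipbl+/- culture thus lay below every WT culture, a pattern that 10.8% of the 9061 tested genes also showed. As TMM-normalized CPM, which scales each count to the size of its library, Malat1 stood at 15421, 13534 and 14147 in WT and at 10849, 8507 and 9341 in Nipbl+/-. The means were 14367 ± 962.6 and 9566 ± 1187 CPM (SD, n = 3 each).

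Malat1 fell by 0.59 on the log2 scale (SE 0.09), a fold of 0.666 with a 95% interval of 0.578 to 0.767. The adjusted p was 0.0234 by the quasi-likelihood test of edgeR over all tested genes. This test called 1.95% of the tested genes in either direction, and 0.916% as lower in Nipbl+/-. The exact permutation test of the CPM values gave p = 0.1, two-sided, the smallest that 3 against 3 cultures allow. The call held without WT replicate 2 or WT replicate 3 (adjusted p = 0.0238 and 0.0480 by the same test of edgeR) and was lost without any of the other cultures. The adjusted p was then 0.105 without WT replicate 1 and 0.0581, 0.0772 and 0.0707 without Nipbl+/- replicates 1, 2 and 3, with changes of -0.54, -0.69, -0.51 and -0.57 on the log2 scale.

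Neat1 RNA, the paraspeckle scaffold, had lower values in Nipbl+/- cultures too, with a wider spread between replicates. The WT cultures had 18157, 11994 and 11498 reads, or 823.8, 533.8 and 533.5 CPM. The Nipbl+/- cultures had 10234, 7797 and 6891 reads, or 461.5, 298.0 and 329.0 CPM. WT replicate 1 stood above the other WT cultures. No Nipbl+/- culture reached the lowest WT culture, which was 1.16 times the highest Nipbl+/- culture, and 10.8% of all tested genes were likewise apart in this direction. The means were 630.4 ± 167.5 CPM in WT and 362.8 ± 86.9 CPM in Nipbl+/- (SD, n = 3 each).

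The fitted difference for Neat1 was -0.80 on the log2 scale (SE 0.20), with a 95% interval of -1.27 to -0.33. It did not pass the threshold, with an adjusted p of 0.0935 by the quasi-likelihood test of edgeR, and the exact permutation test gave p = 0.1. Other settings passed the threshold. The exact test of edgeR gave an adjusted p of 0.0103 and called 2.35% of tested genes as lower in Nipbl+/-, and the quasi-likelihood test gave 0.0302 without a filter on low counts. Without WT replicate 1, the difference was -0.56 and the adjusted p of the quasi-likelihood test 0.253.

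**Figure D1:**
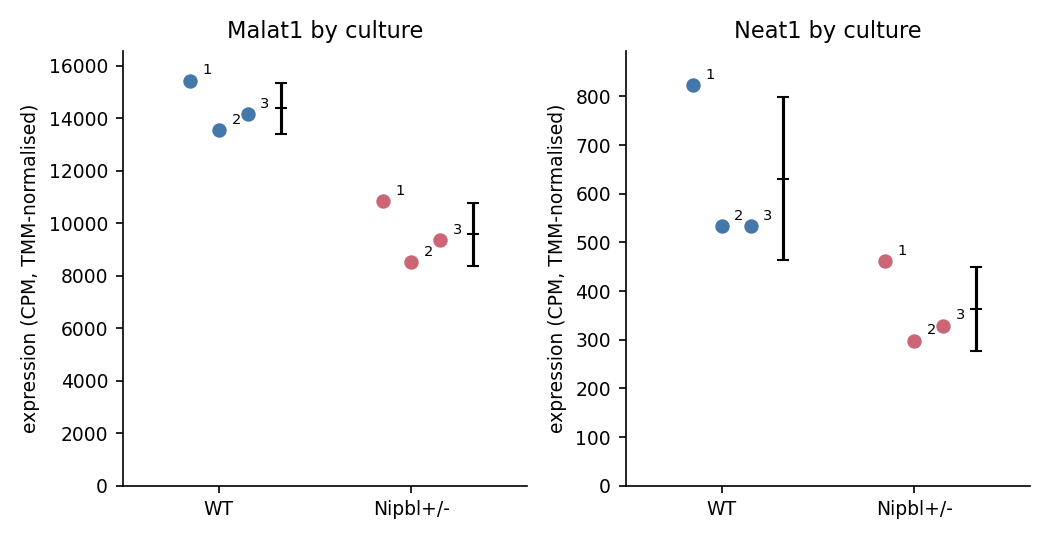
Malat1 (left) and Neat1 (right) in each culture, on the vertical axis as TMM-normalised CPM from 0, with the genotype on the horizontal axis. Each point is 1 culture with its replicate number, and the black mark and bar are the mean and SD of 3 cultures. For both genes the 3 Nipbl+/- cultures lie below the 3 WT cultures, as for 10.8% of all tested genes. The gap is wider for Malat1 (lowest WT culture 1.25 times the highest Nipbl+/- culture) than for Neat1 (1.16 times).

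Counting error was small beside the spread of the cultures. It came to between 0.172% and 0.226% of the Malat1 count and to between 0.742% and 1.20% of the Neat1 count. The coefficient of variation between replicates was 6.7% (WT) and 12.4% (Nipbl+/-) for Malat1, and 26.6% and 23.9% for Neat1. In both groups the coefficient was higher for Neat1 than for Malat1.

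Malat1 was among the most counted genes of the table. It ranked 4th or 5th by count in WT cultures and 8th or 9th in Nipbl+/- cultures. Levels of different genes are compared per length, as RPKM, the authors' counts scaled by gene length and library size. Malat1 stood at 1958 ± 124.8 RPKM in WT and 1343 ± 159.6 RPKM in Nipbl+/- (SD, n = 3 each), and Neat1 at 28.8 ± 7.24 and 17.1 ± 3.95 RPKM. The RPKM values fit a length equal to the whole gene span for both genes. The short and long forms of Neat1 share their 5′ part, and these counts cannot tell them apart.

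GENCODE M21 classes 1609 genes of the table as lincRNA (long intergenic noncoding RNA), of which 844 are plus-strand genes listed at 0 and 471 had counts. Among the lincRNA genes of the minus strand, Malat1 had the highest RPKM in all 6 cultures. Neat1 ranked 5th in the WT cultures and in Nipbl+/- replicate 1, and 11th and 9th in Nipbl+/- replicates 2 and 3. Malat1 held between 83.9% and 87.3% of lincRNA counts in WT and between 81.4% and 83.5% in Nipbl+/-. These counts include Malat1 itself, and also Xist, which had many reads only in WT replicate 3 and Nipbl+/- replicates 1 and 2. Of the same counts, Neat1 held between 3.16% and 4.62% in WT and between 2.85% and 3.51% in Nipbl+/-. Together both genes made up 1.48 ± 0.10% of all counts in WT and 1.01 ± 0.12% in Nipbl+/- (SD, n = 3 each, with p = 0.1 by a two-sided exact permutation test). The other lincRNA genes together, without Xist, made up 0.160 ± 0.022% and 0.148 ± 0.011% (exact permutation test, two-sided, p = 0.5), and there the groups overlapped. This sum is weighted to its most counted genes, such as H19 with 12737, 7641 and 16988 reads in the WT cultures. Taken gene by gene, the 172 tested lincRNA genes other than the pair had a median log2 fold change of -0.14.

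The ratio of Malat1 to Neat1 within a culture uses no normalization between cultures. The WT cultures had 18.7, 25.4 and 26.5 reads of Malat1 per read of Neat1. For the Nipbl+/- cultures the ratio was 23.5, 28.6 and 28.4. The groups overlapped, and the means on the log2 scale differed by 0.20 (exact permutation test, two-sided, p = 0.5, n = 3 each). With 3 against 3 cultures this exact permutation test cannot go below p = 0.1, so it cannot show whether the changes of both genes differ in size. Without WT replicate 1 the difference was 0.04. Per length, Malat1 stood between 55.7 and 84.9 times above Neat1.

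**Figure D2:**
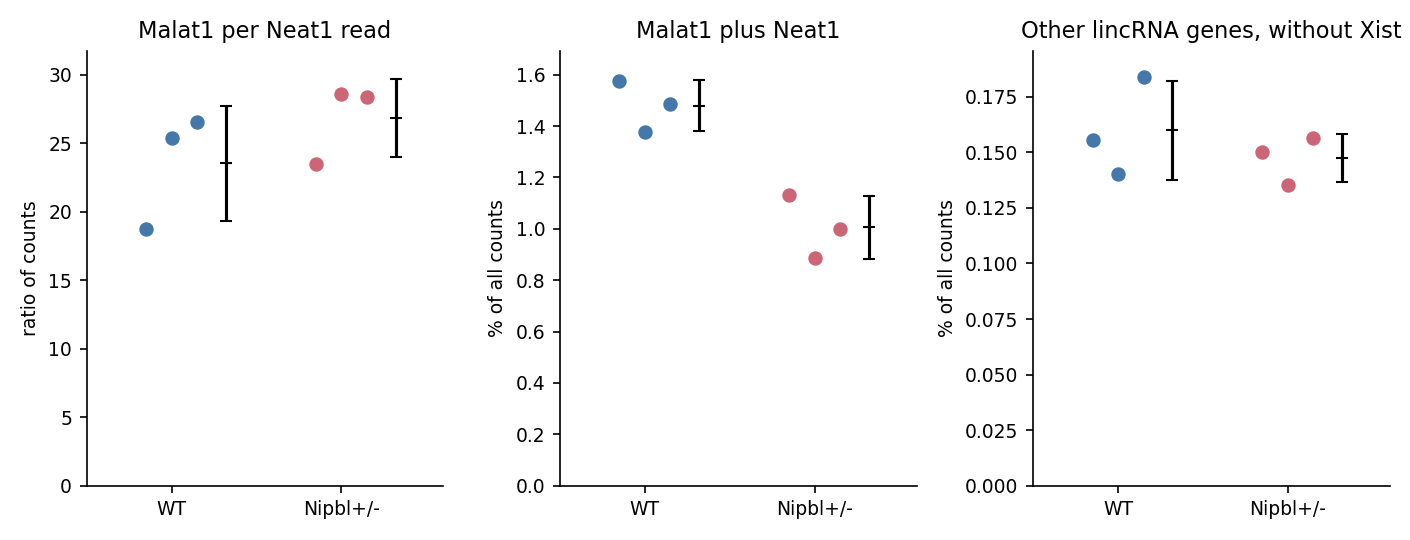
Reads of Malat1 per read of Neat1 (left), both genes as a percentage of all counts (middle) and all other lincRNA genes without Xist as a percentage of all counts (right), by genotype on the horizontal axis. Points are cultures, and black marks and bars are means and SD of 3 cultures. The groups are apart in the middle panel (1.48% against 1.01% on average) and overlap in the others.

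The cultures also differed in sex, which crossed the genotypes. Xist, the RNA of the inactive X chromosome, exceeded the Y-linked Ddx3y in WT replicate 3 and Nipbl+/- replicates 1 and 2, and Ddx3y exceeded Xist in the others. Among cultures with more Xist, the Malat1 CPM of Nipbl+/- was below that of WT by a log2 difference of -0.55, and that of Neat1 by -0.49. Among cultures with more Ddx3y, the log2 differences were -0.63 for Malat1 and -1.05 for Neat1. Every Nipbl+/- culture lay below every WT culture for both genes, so any split of the cultures gives this direction. The direction within each sex is thus no separate check, and with 1 or 2 cultures per genotype no test was made. With the log2 CPM of Xist as a covariate the change of Malat1 was -0.59, with an adjusted p of 0.0315 by the quasi-likelihood test of edgeR. In the same fit Neat1 differed by -0.78 and did not pass the threshold (adjusted p = 0.139, same test).

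Macrophage markers had higher values in Nipbl+/- cultures. Of 15 macrophage markers in the table, 9 were tested, all 9 had higher means in Nipbl+/-, with a median log2 fold change of 1.04, and none passed the adjusted threshold, while 8 had an unadjusted p below 0.05. Their summed level was between 54.8 and 71.2 CPM (without TMM) in WT and between 92.5 and 177.3 in Nipbl+/-. The defining markers Csf1r, Emr1 and Mrc1 are plus-strand genes listed at 0. The part of this difference in the levels of Malat1 and Neat1 was not tested. Of the fibroblast markers 4 were tested and none was called, with a median log2 fold change of -0.31 and 3 of 4 below 0. Prrx1 differed by -0.30 (adjusted p = 0.0661, quasi-likelihood test of edgeR), Col6a1 by -0.50 and Fbn1 by -0.32, while Fn1 differed by 0.12. The summed level of the list overlapped, between 17050 and 21530 CPM (without TMM) in WT and between 19640 and 21310 in Nipbl+/-. Most of this sum was Fn1, with 16030 CPM on average in WT and 17360 CPM in Nipbl+/- (TMM-normalized). The part of these markers in the levels of Malat1 and Neat1 was not tested either. In RNA of whole cultures, fewer cells with an RNA and less of that RNA per cell cannot be told apart. Of the other marker lists, all 7 erythroid genes were at 0 in every culture, 4 of them as plus-strand genes. Most markers of the remaining lists were not tested. Those tested were 2 of 9 endothelial, 1 of 10 neural, 2 of 7 epithelial and 3 of 10 skeletal muscle markers, and none was called. The epithelial markers were Krt8, with few reads, at 1.48 (adjusted p = 0.227) and Krt19 at -0.41 (adjusted p = 0.122, both by the quasi-likelihood test of edgeR).

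Both genes stood low among genes with as many reads or more, a comparison made after their values were seen. Of the 265 tested genes with an average log2 CPM at or above that of Neat1, none had a lower log2 fold change than Neat1, and Neat1 itself was the only one below Malat1. The next lowest was Col6a1, a collagen gene of fibroblasts, at -0.50 on the log2 scale (adjusted p = 0.227, quasi-likelihood test of edgeR). In this range 5 of the 265 genes, Malat1 among them, were called lower and 2 higher. Over all tested genes 0.916% were called lower and 1.95% in either direction. Over all tested genes the median log2 fold change was -0.006.

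**Figure D3:**
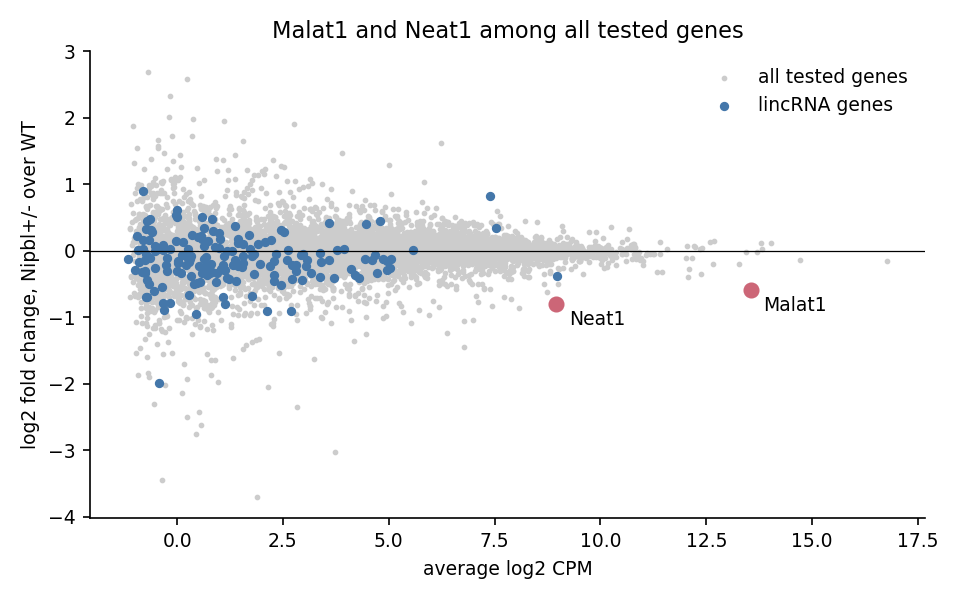
Log2 fold change of Nipbl+/- over WT (vertical axis) against average log2 CPM (horizontal axis) for the 9061 tested genes (grey), the tested lincRNA genes (blue) and Malat1 and Neat1 (red). Malat1 and Neat1, at -0.59 and -0.80, lie below all other points with an average log2 CPM at or above that of Neat1.

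Other nuclear long noncoding RNAs did not all share these lower values. The list held 19 genes, Malat1 and Neat1 among them, of which 8 are plus-strand genes listed at 0 and 9 were tested. Malat1 was the 1 member called (1.95% of all tested genes were called). In the list 4 members lay above 0 and 5, the pair included, below. The median was -0.05 on the log2 scale (-0.006 over all tested genes), and 0.002 for the 7 tested members other than the pair. Xist, which differed with the sex of the cultures, was among those above 0, at 0.83 (95% interval -3.56 to 5.22). Rn7sk, the 7SK RNA that holds the elongation factor P-TEFb inactive, had about as many reads as Malat1 in WT, with 14390 ± 613 CPM, and stood at 14660 ± 871 CPM in Nipbl+/- (SD, n = 3 each). Its difference was 0.03 with a 95% interval of -0.10 to 0.16. Tug1, a nuclear RNA bound to Polycomb proteins, had 275.9 ± 6.62 and 276.3 ± 5.22 CPM, with an interval of the log2 difference of -0.10 to 0.11.

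Rmst, a noncoding RNA that works with Sox2 in neural cells, had values that resembled those of the pair with far fewer reads. The WT cultures had 3.99, 4.63 and 3.57 CPM and the Nipbl+/- cultures 2.30, 2.33 and 2.96 CPM, so that the groups did not overlap, as for 10.8% of all tested genes in this direction. Its difference of -0.69 on the log2 scale was not called (adjusted p = 0.103, quasi-likelihood test of edgeR). Firre, which anchors chromatin of the X chromosome, differed by -0.19 (95% interval -0.47 to 0.09), and Ftx, a regulator of Xist, by -0.05 (-0.46 to 0.35).

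Of 15 noncoding RNAs known chiefly from the cytoplasm or as hosts of small nucleolar RNAs, 7 were tested, none was called, and all 7 had differences below 0, with a median of -0.12 on the log2 scale. H19, an imprinted RNA of the embryo, had 568.7 CPM on average in WT and 437.2 CPM in Nipbl+/-, and its interval ran from -0.98 to 0.22. Snhg18 had a difference of -0.28 (adjusted p = 0.174, quasi-likelihood test of edgeR). Across the whole lincRNA class, 174 genes were tested, 59 lay above 0 and 115 below, and the median was -0.14. Over all tested genes 51.6% lay below 0, with a median of -0.006. The class held 3 called genes, a share near the 1.95% called over all tested genes. Besides Malat1 these were Gm15675, which fell by 0.91 (adjusted p = 0.0393), and 2410018L13Rik, which rose by 0.46 (adjusted p = 0.0393), both by the quasi-likelihood test of edgeR. With 1 culture left out, Gm15675 lost its call in each of 6 fits and 2410018L13Rik in all but that without WT replicate 2, with changes of -0.99 to -0.80 and 0.39 to 0.52.

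No gene on the list of paraspeckle proteins, the partners of Neat1 RNA, was called. Of 43 genes 22 were tested, 14 lay above 0 (48.4% did so over all tested genes) and the median was 0.04 on the log2 scale. With 1.95% of all tested genes called, a list of this size could hold no call without differing from the rest, and the same holds for the lists that follow. All Nipbl+/- cultures lay below all WT cultures for 5 of the 22 tested genes and above them for 5. Over all tested genes these shares were smaller, at 10.8% and 12%, and the difference in shares was not tested. The core components Sfpq and Nono, without which paraspeckles do not form, are plus-strand genes listed at 0. Pspc1, the third core component of the same protein family, had 36.2, 37.3 and 35.4 CPM in WT and 41.6, 41.2 and 43.8 CPM in Nipbl+/-. Its groups did not overlap, as for 12% of all tested genes with the Nipbl+/- cultures higher, and the difference of 0.22 was not called (adjusted p = 0.0941, quasi-likelihood test of edgeR). Hnrnpk, which favours the long form of Neat1, differed by 0.07 (95% interval -0.03 to 0.16), and the 3′ end processing factors Nudt21 and Cpsf6, which favour the short form, by 0.08 (-0.05 to 0.21) and 0.06 (-0.05 to 0.17). Klf4, a transcription factor on the list, averaged 46.7 CPM in WT against 33.8 CPM in Nipbl+/- and was not called (adjusted p = 0.141, quasi-likelihood test of edgeR).

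Genes of nuclear speckle proteins, the surroundings of Malat1 RNA, differed little in size. Of 46 genes, 21 were tested, none was called, 13 lay above 0, and the log2 differences ranged from -0.20 to 0.18 with a median of 0.02. Clk1, a kinase that releases splicing factors from speckles, was at the lower end at -0.20 (adjusted p = 0.112), and U2af1, which recognises the 3′ splice site, at the upper end at 0.18 (adjusted p = 0.142, both by the quasi-likelihood test of edgeR). Sf3b1, a core factor of the spliceosome and the most counted of the list, differed by -0.02 (95% interval -0.12 to 0.08).

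Factors that act on the 3′ ends printed above, or on the modification of these RNAs, were few on the measured strand. Of 23 genes, 12 were tested, none was called, 7 lay above 0 and the median was 0.04. Rpph1, the RNA subunit of RNase P, had 6879 CPM on average in WT and 6014 CPM in Nipbl+/-, and its difference of -0.19 had an interval of -0.50 to 0.11. Mettl3 and Mettl14, which form the enzyme that methylates adenosine in RNA, differed by 0.06 (-0.13 to 0.25) and 0.17 (-0.07 to 0.40). Mettl16, which binds the triple helix of Malat1, is a plus-strand gene listed at 0. Pop4, a protein subunit of RNase P, had the widest interval of the list (-1.40 to 0.81). The part of these factors in the levels of Malat1 and Neat1 was not tested.

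The genes around the pair were examined within 250 kb on either side. Of 36 genes, 17 were tested, none was called, 7 lay above 0 and 10 below, and the median was -0.04 on the log2 scale, all near the shares over all tested genes (1.95% called, 51.6% below 0). Frmd8, a cofactor of a membrane protease and the nearest tested gene upstream of Neat1, had 118.2, 107.8 and 121.1 CPM in WT and 97.8, 100.6 and 98.6 CPM in Nipbl+/-. The groups did not overlap, again as for 10.8% of all tested genes, and the difference of -0.22 was not called (adjusted p = 0.0922, quasi-likelihood test of edgeR). On the other side, Sipa1 and Kat5 had differences of 0.34 (0.14 to 0.55) and 0.18 (0.05 to 0.32), with adjusted p of 0.1 and 0.162 by the quasi-likelihood test of edgeR.

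**Figure D4:**
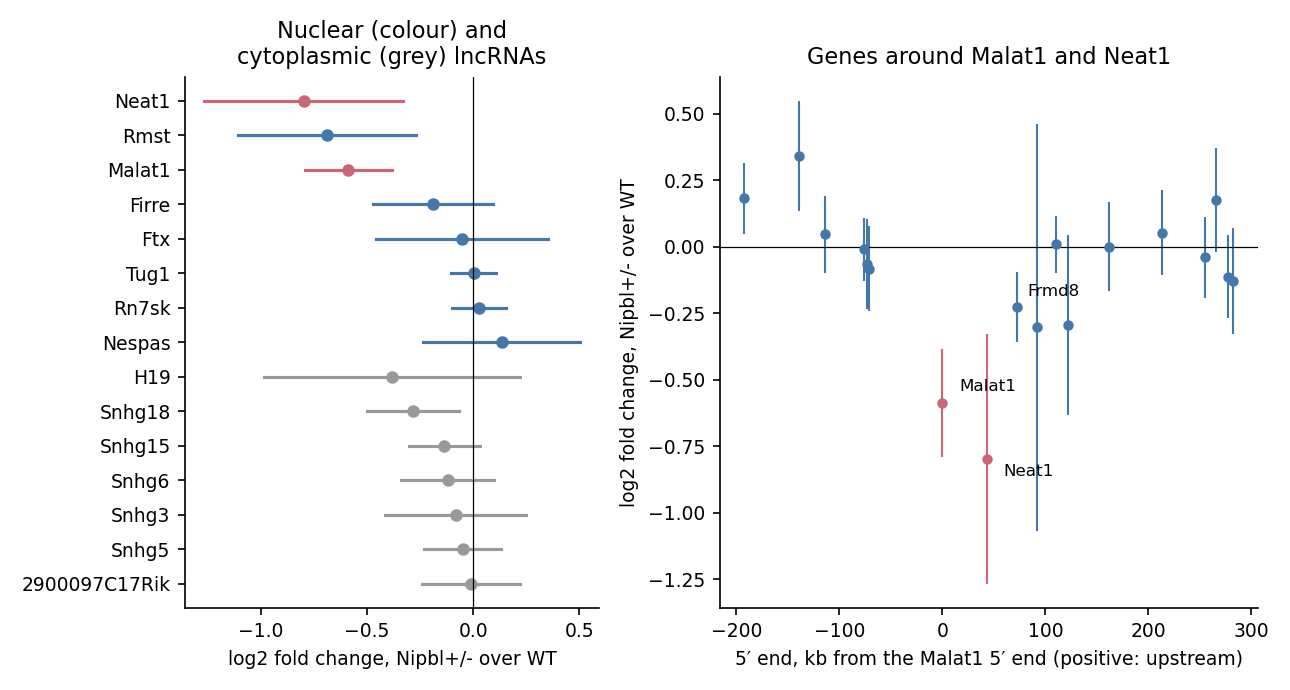
Log2 fold change of Nipbl+/- over WT with 95% intervals for nuclear and cytoplasmic long noncoding RNAs without Xist (left, horizontal axis) and for tested genes within 250 kb of the pair, apart from 1 that is not reported here (right, vertical axis), against the distance of each gene's 5′ end from that of Malat1 in kb. Red points are Malat1 and Neat1. Their intervals lie wholly below 0, as do those of Rmst, Snhg18 and Frmd8, while those of Rn7sk and Tug1 surround 0.

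The genes whose pattern over the 6 cultures most resembled each member were found by Pearson's r of log2 CPM among 8342 genes, as a description, since with 6 cultures of 2 genotypes many genes reach a high r. Neat1 had r = 0.95 with Malat1 and was the 50th most alike gene. Closest to Malat1 were Gm23413, Gm23398, B4galt1, Grpr and AC137156.1 (r between 0.98 and 0.99). B4galt1, a galactosyltransferase, had 231.8 CPM on average in WT and 198.5 CPM in Nipbl+/-. The most opposed were Alx1, Fam73a, Gm21596, Hmgb1-ps4 and St13 (r from -0.997 to -0.991). Alx1, a homeobox gene of the facial mesenchyme, rose by 0.96 on the log2 scale (adjusted p = 0.0288, quasi-likelihood test of edgeR), and Fam73a, which acts in mitochondrial fusion, by 0.59 (adjusted p = 0.0443, same test). Leaving out a culture ended the call of Alx1 in all fits but that without WT replicate 2, and that of Fam73a in each of 6. Closest to Neat1 were Slc29a1, Fdx1, Gm25072, Rap1gap2 and Glyctk (r = 0.99 each), and most opposed were Cdc5l, Itpripl1, BC055324, Smarca5 and Tti1 (r = -0.99 each). Of these 10 genes, none was called.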

How the data were processed

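Ribo-depleted total RNA of 3 WT and 3 Nipbl+/- MEF cultures was sequenced. Per the methods and the submitters' notes, the authors aligned reads to mm10 with TopHat2 2.0.10 and used edgeR, and they deposited a raw count and an RPKM for each gene. The counting tool is not given in the sources used here. The RPKM of both genes imply totals 1.03 to 1.04 times the summed counts.

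From these counts, filterByExpr (minimum count 10) chose the genes to test. After TMM normalization, edgeR 4.0.16 in R 4.3.3 compared the genotypes by its quasi-likelihood F test without covariates. P-values were adjusted by Benjamini-Hochberg over 9061 tested genes (threshold 0.05). Log2 CPM used a prior count of 2. The steps were checked on simulated data. The members and lists were chosen with earlier results of these data known. Named genes are both members, Nipbl, list members (those called, then the most abundant; others shown were picked for their role or after their values were seen), overlapping genes and the 5 most and least correlated genes with an average log2 CPM above 0. The files give no gene class, so the lincRNA class is that of GENCODE M21, matched for 95.2% of identifiers. Other settings tried were the likelihood ratio and exact tests of edgeR, DESeq2 1.42.0, other normalizations and filters, limma 3.58.1 on log2(RPKM + 0.1), a replicate block and each culture left out. A gene near the pair and a paraspeckle gene are counted in their lists but not reported here.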

Additional observations from a re-analysis of the deposited data

How the results depend on the processing

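Malat1 was lower in Nipbl+/- in all 18 alternative fits and past the threshold in 13, and Neat1 was lower in all 18 and past it in 4. Limma on RPKM gave Malat1 -0.55 (adjusted p = 0.0582). Leaving out 1 culture moved Malat1 between -0.69 and -0.51 (past the threshold in 2 of 6) and Neat1 between -1.01 and -0.56 (in none of 6). Neat1 was past the threshold at -0.80 with edgeR's exact test, with its likelihood ratio test (adjusted p = 0.0100) and without a filter on low counts (adjusted p = 0.0302). The genes called, 177 in the report, numbered 432 (exact test), 442 (likelihood ratio test), 449 (DESeq2), 325 (no filter) and 30 (limma on RPKM), and between 3 and 268 with 1 culture left out. By the same order of settings, lincRNA genes called were 10, 11, 5, 5 and 0, and between 0 and 2 with a culture left out. Nuclear long noncoding RNAs called were 3, 3, 1, 2 and 0, and between 0 and 1 with a culture left out. The third gene under the exact and likelihood ratio tests was Rmst. DESeq2 called 1 paraspeckle gene, Klf4, and 1 neighbour, Frmd8. With a culture left out both lists ranged between 0 and 1.

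The labels number replicates 1 to 3 in both genotypes, and whether the numbers pair the cultures is not known. Deviations of same-numbered cultures from their group means correlated at -0.06, -0.04 and -0.14, and no culture correlated best with its own number. Each same-numbered pair, however, joined cultures of opposite sex. Pairs of the same sex had r between 0.05 and 0.12, and all pairs of opposite sex had r below 0. The correlations therefore cannot show whether the numbers mark a shared preparation. With the replicate block, 86 genes were called, Malat1 was -0.59 (adjusted p = 0.0174), Neat1 was -0.79 and past the threshold (adjusted p = 0.0111), and 2 nuclear long noncoding RNAs were called.

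Leaving out 7SL genes by name was not run, as no gene carries such a name. In its place, and after the data were seen, the 2 most counted genes were left out (Malat1 -0.59, Neat1 -0.80), and Xist was added as a covariate (-0.59 and -0.78). Counting error was below the spread between replicates for both genes, so the depth is not what sets their error.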
